A study of Homo sapiens with 12 samples.

Results

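The Bardet-Biedl ciliary trafficking genes described here are the 10 genes BBS1, BBS2, BBS4, BBS5, BBS7, BBS9, BBS10, BBS12, MKKS and ARL6, taken by their names from a count table of 62757 human genes. The table held 12 rows with these names, because MKKS was listed under 3 gene identifiers. The 2 small MKKS entries nested in the main gene had 0 counts in every library, and the main entry was used. All exon bases of these 2 entries are shared with other entries, and reads in several genes were counted for none. All 10 genes had enough counts to be tested. They were measured by RNA sequencing in ARPE-19, an established line of human retinal pigment epithelium. Every culture, the control included, had been treated with 3 µM fenretinide, a synthetic retinoid also called N-(4-hydroxyphenyl)retinamide, for 120 h. The cultures were then transduced with the adeno-associated virus AAV9-AIPL1co, which carries a codon-optimized copy of the chaperone gene AIPL1, with AAV9-AIPL1wt, in which the AIPL1 sequence is the native one, or with AAV9-GFP, a vector with the gene of the green fluorescent protein and no AIPL1, or were left non-transduced as the control. Each group had 3 biological replicates. The cells of all groups are 1 line, all vectors were given at the same number of viral genomes per cell, and the cells were lysed within about a day of transduction.

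Bardet-Biedl syndrome is an inherited ciliopathy in which retinal degeneration is a leading feature, and its genes serve the traffic of membrane proteins into and out of the primary cilium, the antenna-like organelle of which the photoreceptor outer segment is a modified form. BBS1, BBS2, BBS4, BBS5, BBS7 and BBS9 encode subunits of the BBSome, a coat-like complex that carries receptors along the cilium with the intraflagellar transport (IFT) trains. The small GTPase ARL6 recruits the BBSome to membranes. MKKS, BBS10 and BBS12 encode proteins related to chaperonins, which work with the CCT chaperonin to assemble the BBSome around a core that holds BBS2, BBS7 and BBS9.

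The libraries held 10088882 to 12811670 reads and 6322811 to 9075660 gene counts, of which 544 to 1647 counts per library fell on the 10 genes. Control replicate 1 did not enter the fits, so the control had n = 2. Both remaining controls carried 1 of the 2 dates found in the names of the deposited files (date 2), while each transduced group had 1 library from date 2 and 2 from date 1, so the comparisons with the control rest partly on a difference of date. The vector entry for codon-optimized AIPL1 had 11, 13 and 19 counts in the AAV9-AIPL1co libraries and 0 in the others, and the GFP entries had 2, 1 and 4 counts in the AAV9-GFP libraries and 0 in the others. The entry for native AIPL1 had 0 counts in all 12 libraries; the native sequence is also in the genome and only uniquely aligned reads were counted, so the AAV9-AIPL1wt label could not be checked this way. Of 11 markers of retinal pigment epithelium, RPE65 and TYR were at 0 in every library and TTR had 1 count in all, while the keratin genes KRT8 and KRT18 were high. The summed normalized counts of this marker list were 6783 to 7996 in the control libraries, 5775 to 7057 in those of AAV9-GFP, 3285 to 3392 in those of AAV9-AIPL1co and 5295 to 5902 in those of AAV9-AIPL1wt. Most of each sum was KRT8, with group means of 4360, 3808, 1914 and 3172 in this order, and KRT18, with 2722, 2400, 1181 and 2185. RLBP1 had means of 10.1, 10.6, 23.8 and 13.6. Of the 6 tested, 4 were called lower and 1 higher with AAV9-AIPL1co than in the control, beside 24.5% and 22.4% of all genes tested. The 8 photoreceptor markers summed to 43.7 to 44.3, 49.0 to 75.2, 52.0 to 56.5 and 29.8 to 41.6 in the same order, with RBP3 at 0 throughout. The 6 neuron markers, nearly all of whose counts came from ENO2, summed to 1989 to 2120, 1831 to 1995, 2045 to 2117 and 1483 to 1880. Among them TUBB3 had means of 66.8, 60.5, 21.0 and 25.1. Whether these marker levels have a part in the differences below was not tested.

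Differences were tested for all 13896 genes with sufficient counts by edgeR's quasi-likelihood test, and a gene is called changed where its adjusted p (Benjamini and Hochberg, over all genes tested) was under 0.05. BBS4, BBS2 and BBS12 carried the clearest differences. BBS4 fell with both AIPL1 vectors and further with the native sequence, BBS2 fell with AAV9-AIPL1wt and not with AAV9-AIPL1co, and BBS12 was lowest with AAV9-GFP and higher with both AIPL1 vectors. BBS1, BBS5, MKKS and ARL6 were called in none of the 6 comparisons. In bulk RNA, fewer cells with a transcript and less of it per cell cannot be told apart.

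Counted over the 10 genes, 0 rose and 2 fell in AAV9-AIPL1co cells relative to the control, beside 22.4% of all genes tested that rose and 24.5% that fell. With AAV9-AIPL1wt against the control 1 was higher and 4 lower, beside 26.4% and 30% of all genes. With AAV9-GFP against the control 0 were higher and 1 lower, beside 2.3% and 6.66% of all genes. AAV9-AIPL1co against AAV9-GFP gave 1 higher and 1 lower, beside 16.1% and 14.8%, and AAV9-AIPL1wt against AAV9-GFP gave 1 higher and 2 lower, beside 25.6% and 25.5%. AAV9-AIPL1co against AAV9-AIPL1wt gave 2 higher and 0 lower, beside 22.3% and 19.3%. Against these shares no count of members is read as a result, and the results below are those of single genes. The median log2 fold change of the 10 genes against the control was -0.21 for AAV9-AIPL1co, -0.38 for AAV9-AIPL1wt and -0.37 for AAV9-GFP, where the medians of all genes were -0.02, -0.04 and 0.01. The 3 comparisons share the same 2 control libraries. With offsets for GC content the differences with AAV9-AIPL1wt were -1.94 for BBS4, -0.68 for BBS2 and -0.44 for BBS9. They were -0.05 for BBS1, -0.02 for BBS5, 0.06 for BBS7 and ARL6, 0.16 for BBS10, 0.51 for MKKS and 0.88 for BBS12. No shift of the 10 genes is therefore read from the medians.

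**Figure D1:**
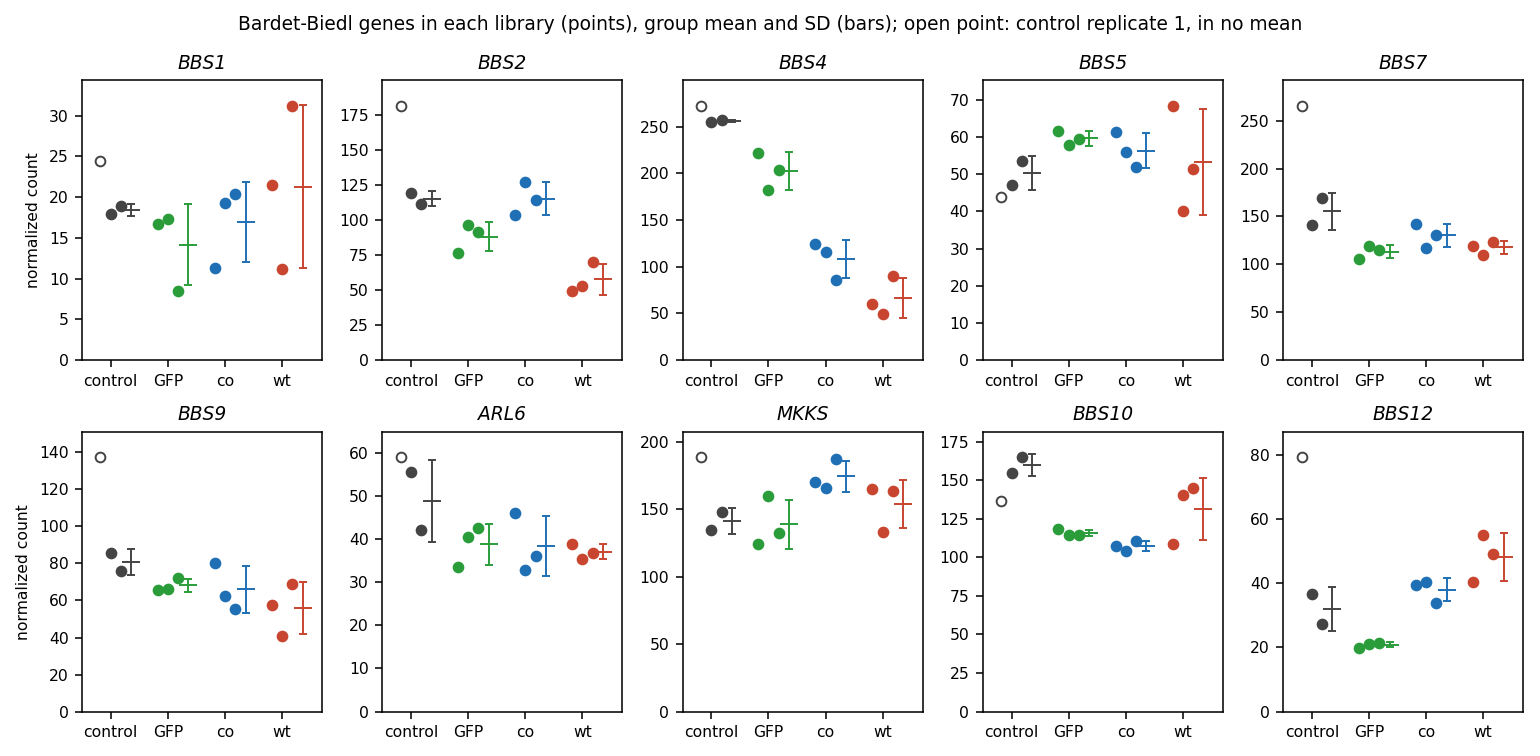
Normalized counts (vertical axes, each from 0) of the 10 genes in the 12 libraries, grouped on the horizontal axis as the non-transduced control, AAV9-GFP (GFP), AAV9-AIPL1co (co) and AAV9-AIPL1wt (wt); points are libraries, bars the group mean with SD, and the open point is control replicate 1, which is in no mean. BBS4 steps down from the control at 255 and 257 to AAV9-AIPL1wt at 49.4 to 90.3, and BBS12 is lowest with AAV9-GFP at 19.9 to 21.2.

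The sequences just upstream of the 3 genes that carry these differences are shown with that of BBS5, one of the genes with no call, so that a reader can see what each promoter holds. They are from RefSeq (GRCh38.p14), 250 bases before to 50 bases after the start that RefSeq annotates, 5′ to 3′ on the gene's strand, and capitals mark the half-site GTTGCC of the RFX factors, the transcription factors that drive many ciliary genes. For BBS2 that start lies inside the longer gene span that Gencode gives, which is the span printed with its counts.
BBS4 promoter, chr15:72685957-72686256, plus strand: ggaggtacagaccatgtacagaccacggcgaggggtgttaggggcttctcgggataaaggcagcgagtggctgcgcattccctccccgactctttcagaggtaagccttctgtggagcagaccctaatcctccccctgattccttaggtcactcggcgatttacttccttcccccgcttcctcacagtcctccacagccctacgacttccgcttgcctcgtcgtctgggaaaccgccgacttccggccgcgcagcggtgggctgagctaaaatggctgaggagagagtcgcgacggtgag
BBS2 promoter, chr16:56519975-56520274, minus strand: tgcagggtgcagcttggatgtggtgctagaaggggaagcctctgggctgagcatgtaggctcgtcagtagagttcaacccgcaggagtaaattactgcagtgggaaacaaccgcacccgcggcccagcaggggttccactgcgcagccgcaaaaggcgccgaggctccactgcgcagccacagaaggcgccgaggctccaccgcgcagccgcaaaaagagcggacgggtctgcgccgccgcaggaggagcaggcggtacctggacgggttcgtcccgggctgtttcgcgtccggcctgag
BBS12 promoter, chr4:122732454-122732753, plus strand: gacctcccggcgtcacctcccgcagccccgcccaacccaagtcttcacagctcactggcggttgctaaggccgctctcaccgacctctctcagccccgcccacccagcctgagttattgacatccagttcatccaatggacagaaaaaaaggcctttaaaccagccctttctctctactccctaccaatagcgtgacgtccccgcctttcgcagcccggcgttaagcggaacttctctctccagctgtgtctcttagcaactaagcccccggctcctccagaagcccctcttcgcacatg
BBS5 promoter, chr2:169479244-169479543, plus strand: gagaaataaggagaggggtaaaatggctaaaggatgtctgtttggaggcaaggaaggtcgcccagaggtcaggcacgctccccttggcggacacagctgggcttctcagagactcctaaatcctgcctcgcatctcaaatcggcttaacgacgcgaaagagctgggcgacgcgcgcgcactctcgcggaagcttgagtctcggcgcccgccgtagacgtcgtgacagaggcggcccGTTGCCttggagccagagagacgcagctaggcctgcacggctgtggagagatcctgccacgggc
On both strands, GTTGCC occurred in 12.2% of the 35116 promoters of this length and in those of 4 of the 9 members that had one, namely BBS1, BBS5, BBS10 and ARL6, of which BBS10 was called lower in 2 comparisons and the others in none. The promoters of BBS4, BBS2, BBS12, BBS7 and MKKS did not hold these letters in this window. The share of 12.2% is per promoter, whereas members are counted per gene, and ARL6 and MKKS each had more than 1 promoter searched. The half-site began 14 bases before the start in BBS5, 221 before it in BBS10 and 1 base after it in BBS1. In ARL6 it began 24 bases before one annotated start, and matches lay at 214 and 154 bases before another. The longer RFX X-box was searched only as GTHNYY followed without a gap by ATRRNAAC, where N is any base, H is A, C or T, Y is C or T and R is A or G. This fixed pattern occurred in 0.894% of all promoters and in 0 of the members'. Sites with other letters or spacing were not searched for, so no absence of X-boxes is read from this. BBS9 was absent from the promoter table.

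BBS4 (ENSG00000140463.14; chr15:72686179-72738475 in GRCh38, plus strand) encodes the BBSome subunit that binds PCM1 at the centriolar satellites. Its normalized counts were 255 and 257 in control replicates 2 and 3, and 222, 182 and 204 with AAV9-GFP. They were 124, 116 and 85.9 with AAV9-AIPL1co and 60.4, 49.4 and 90.3 with AAV9-AIPL1wt. Every AIPL1 library lay below every GFP and control library, and the only overlap was between both AIPL1 groups, where AAV9-AIPL1wt replicate 3 lay just above AAV9-AIPL1co replicate 3. The group means were 256 ± 0.784 (SD, n = 2), 202 ± 19.9 (n = 3), 109 ± 20.2 (n = 3) and 66.7 ± 21.2 (n = 3). Against the control BBS4 was 3.98-fold lower with AAV9-AIPL1wt (log2 fold change -1.99, SE 0.20, adjusted p = 2.65e-07) and 2.37-fold lower with AAV9-AIPL1co (-1.25, SE 0.19, adjusted p = 3.67e-05). Against AAV9-GFP, the vector without AIPL1, it was 3.10-fold lower with AAV9-AIPL1wt (-1.63, SE 0.19, adjusted p = 1.67e-06) and 1.85-fold lower with AAV9-AIPL1co (-0.89, SE 0.17, adjusted p = 0.000881). AAV9-AIPL1co was 1.68-fold above AAV9-AIPL1wt (0.75, SE 0.20, adjusted p = 0.00587). AAV9-GFP was not called different from the control (-0.36, SE 0.18, adjusted p = 0.203), although its 3 libraries lay below both controls. The order of the groups was the same among the date 2 libraries alone, with 255 and 257 in the control, 182 in the AAV9-GFP library, 124 in that of AAV9-AIPL1co and 49.4 in that of AAV9-AIPL1wt. Among those of date 1 it was 222 and 204 with AAV9-GFP against 116 and 85.9 and against 60.4 and 90.3, so that both AIPL1 groups overlapped there. The 4 calls against the control and AAV9-GFP held in all 26 alternative settings.

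BBS2 (ENSG00000125124.14; chr16:56465640-56582667, minus strand) encodes a subunit of the BBSome core. It had 119 and 111 normalized counts in the control and 76.3, 96.2 and 91.4 with AAV9-GFP. With AAV9-AIPL1co the values were 104, 127 and 114, and with AAV9-AIPL1wt 49.6, 53.1 and 70.2. The AAV9-AIPL1co libraries spanned the control range, and all 3 AAV9-AIPL1wt libraries lay below every other library. BBS2 was 2.05-fold lower with AAV9-AIPL1wt than in the control (-1.04, SE 0.18, adjusted p = 0.000114) and 1.55-fold lower than with AAV9-GFP (-0.63, SE 0.17, adjusted p = 0.00569). AAV9-AIPL1co was 2.03-fold above AAV9-AIPL1wt (1.02, SE 0.17, adjusted p = 0.000134). Its difference from the control was -0.02 (SE 0.17, adjusted p = 0.942), and that from AAV9-GFP was 0.39 (SE 0.16, adjusted p = 0.0724). With offsets for GC content the difference between AAV9-AIPL1co and AAV9-GFP passed (0.46, adjusted p = 0.0243), and the difference between AAV9-AIPL1wt and the control shrank to -0.68 (adjusted p = 0.00305). Within date 2 the values were 119 and 111, 96.2, 104 and 53.1, and within date 1 they were 76.3 and 91.4 with AAV9-GFP, 127 and 114 with AAV9-AIPL1co and 49.6 and 70.2 with AAV9-AIPL1wt. The low values with AAV9-AIPL1wt were thus present in both.

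BBS7 (ENSG00000138686.10; chr4:121824329-121870487, minus strand) and BBS9 (ENSG00000122507.21; chr7:33109557-33877180, plus strand) encode the other core subunits. BBS7 had 141 and 169 normalized counts in the control, 106, 119 and 115 with AAV9-GFP, 142, 117 and 131 with AAV9-AIPL1co, and 119, 110 and 124 with AAV9-AIPL1wt. All AAV9-GFP and AAV9-AIPL1wt libraries lay below the controls. BBS7 was called lower with AAV9-AIPL1wt than in the control (-0.45, SE 0.15, adjusted p = 0.0168), but with GC offsets the direction turned (0.06, adjusted p = 0.762), and without control replicate 3 it was -0.28 (adjusted p = 0.262). With a date term it was -0.41 and missed the threshold (adjusted p = 0.056), as it did with DESeq2 (adjusted p = 0.0513). The difference between AAV9-GFP and the control was of the same size (-0.48, SE 0.15) and just missed the threshold (adjusted p = 0.0532). With all 12 libraries BBS7 was called lower than in the control with AAV9-AIPL1wt (-0.71, adjusted p = 0.0102), AAV9-AIPL1co (-0.56, adjusted p = 0.0391) and AAV9-GFP (-0.76, adjusted p = 0.0368). BBS9 had 85.8 and 75.9 in the control, 65.8, 66.4 and 72.2 with AAV9-GFP, 80.1, 62.6 and 55.4 with AAV9-AIPL1co, and 57.7, 41.0 and 69.1 with AAV9-AIPL1wt. It was called lower with AAV9-AIPL1wt than in the control (-0.59, SE 0.22, adjusted p = 0.0284). That call was lost with GC offsets (-0.44, adjusted p = 0.0945), with DESeq2 (-0.55, adjusted p = 0.0666) and on leaving out control replicate 2, control replicate 3, AAV9-AIPL1wt replicate 1 or AAV9-AIPL1wt replicate 2 (adjusted p 0.187, 0.0732, 0.0534 and 0.128). With all 12 libraries the call was kept (-0.84, adjusted p = 0.0139).

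BBS1 (ENSG00000174483.20; chr11:66510606-66533613, plus strand), the subunit that binds ARL6, and BBS5 (ENSG00000163093.12; chr2:169479480-169506655, plus strand), which binds phosphoinositide lipids, were called in no comparison. BBS1 had 17.9 and 19.0 normalized counts in the control, 16.7, 17.3 and 8.50 with AAV9-GFP, 11.3, 19.3 and 20.3 with AAV9-AIPL1co, and 21.5, 11.2 and 31.2 with AAV9-AIPL1wt. Its largest difference was 0.52 (SE 0.38, adjusted p = 0.264), for AAV9-AIPL1wt against AAV9-GFP. Without AAV9-AIPL1wt replicate 2 it was 0.88 and passed (adjusted p = 0.0449), so that call turned on 1 library. Only 8 to 28 reads per library in the fit were counted on BBS1, and 68.5% of its exon bases are shared with other annotated genes, where reads were counted for neither. Its biological coefficient of variation, 0.207, was the highest of the 10 genes. BBS5 had 47.1 and 53.6, then 61.7, 57.7 and 59.5, then 61.2, 55.9 and 52.0, then 68.4, 40.1 and 51.3 in the same order of groups. The AAV9-GFP libraries lay above both controls, while those of AAV9-AIPL1wt spread to either side of them, and no difference of BBS5 exceeded 0.22 in size (SE 0.22, adjusted p = 0.546).

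ARL6 (ENSG00000113966.11; chr3:97764521-97801229, plus strand) had 55.6 and 42.1 normalized counts in the control, 33.4, 40.4 and 42.5 with AAV9-GFP, 46.1, 32.7 and 36.2 with AAV9-AIPL1co, and 38.9, 35.4 and 36.8 with AAV9-AIPL1wt. The 3 transduced groups had means of 38.8 ± 4.74, 38.3 ± 6.97 and 37.0 ± 1.75 (SD, n = 3 each), below the control at 48.8 ± 9.58 (n = 2). The difference with AAV9-AIPL1wt was -0.44 (SE 0.23, adjusted p = 0.109), and with GC offsets it was 0.06 (adjusted p = 0.858), so no direction is given for this gene.

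Among the chaperonin-like genes, BBS12 (ENSG00000181004.10; chr4:122732702-122744942, plus strand) was higher with the AIPL1 vectors than with AAV9-GFP. It had 36.8 and 27.2 normalized counts in the control, 19.9, 21.2 and 21.2 with AAV9-GFP, 39.6, 40.4 and 33.9 with AAV9-AIPL1co, and 40.2, 55.0 and 49.1 with AAV9-AIPL1wt. All 6 AIPL1 libraries and both controls lay above all 3 GFP libraries, and 1 control lay within the range of AAV9-AIPL1co. Against AAV9-GFP it was 2.29-fold higher with AAV9-AIPL1wt (1.20, SE 0.23, adjusted p = 0.000253) and 1.83-fold higher with AAV9-AIPL1co (0.88, SE 0.23, adjusted p = 0.00753). Neither AAV9-AIPL1co (0.24, SE 0.23, adjusted p = 0.413) nor AAV9-GFP (-0.63, SE 0.26, adjusted p = 0.12) was called different from the control. With all 12 libraries AAV9-GFP was called lower than the control (-1.20, adjusted p = 0.0439). The rise over the control with AAV9-AIPL1wt (0.56, SE 0.23, adjusted p = 0.0451) rested on the choice of libraries: control replicate 1 had 79.3, and with all 12 libraries the difference was 0.02 (adjusted p = 0.961). It was also lost without control replicate 3 (0.39, adjusted p = 0.309), without AAV9-AIPL1wt replicate 2 (0.46, adjusted p = 0.125), with DESeq2 (0.60, adjusted p = 0.104), and narrowly without AAV9-AIPL1co replicate 2 or AAV9-AIPL1wt replicate 3. With GC offsets it was larger (0.88, adjusted p = 0.00288). With all 12 libraries the rise with AAV9-AIPL1co over AAV9-GFP kept its size (0.87) and missed the threshold (adjusted p = 0.107), and that with AAV9-AIPL1wt passed in all 26 alternatives. BBS12 lies on chromosome 4 with BBS7, whose end is 862214 bases before its start, and the 10 genes lie on 9 chromosomes in all. The raw counts of BBS12 were 19 to 59 in the 11 libraries fitted.

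BBS10 (ENSG00000179941.9; chr12:76344474-76348415, minus strand) had 155 and 165 normalized counts in the control, 118, 114 and 115 with AAV9-GFP, 107, 104 and 111 with AAV9-AIPL1co, and 109, 141 and 145 with AAV9-AIPL1wt. The transduced libraries lay below both controls, and those of AAV9-GFP and AAV9-AIPL1co spread over only a few counts. It was 1.51-fold lower with AAV9-AIPL1co than in the control (-0.59, SE 0.15, adjusted p = 0.00316) and 1.40-fold lower with AAV9-GFP (-0.49, SE 0.15, adjusted p = 0.0465). With GC offsets these differences were -0.10 (adjusted p = 0.576) and -0.06 (adjusted p = 0.901), and the call for AAV9-GFP was lost when either control, any AAV9-GFP library, any AAV9-AIPL1co library or AAV9-AIPL1wt replicate 3 was left out. Control replicate 1, at 137, lay below the other controls and above the AAV9-GFP and AAV9-AIPL1co libraries. MKKS (ENSG00000125863.20; chr20:10401009-10434222, minus strand) had 135 and 148, then 124, 160 and 133, then 170, 166 and 188, then 165, 133 and 164. The AAV9-AIPL1co libraries lay above all others of the fit. MKKS was not called against the control (0.28, SE 0.15, adjusted p = 0.144) or AAV9-GFP (0.33, SE 0.14, adjusted p = 0.0835), but with GC offsets it was called higher in both (0.72, adjusted p = 0.00198, and 0.40, adjusted p = 0.0437), and with AAV9-AIPL1wt against the control (0.51, adjusted p = 0.0151).

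**Figure D2:**
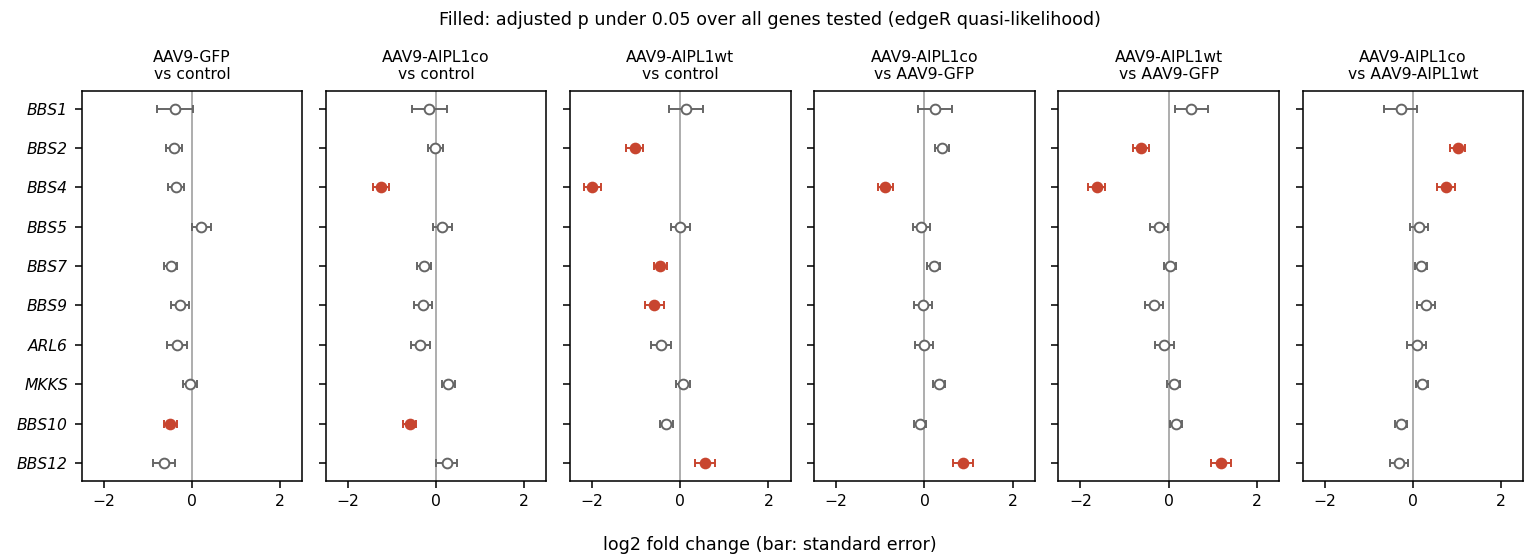
Log2 fold changes (horizontal axis) of the 10 genes in the 6 comparisons, with standard errors; filled points had an edgeR adjusted p under 0.05 over all genes tested. BBS4 is filled in 5 panels and BBS12 and BBS2 in 3 each; where AAV9-AIPL1wt is set against AAV9-GFP, BBS4 and BBS2 lie to the left of 0 and BBS12 to the right.

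Levels were compared between the genes as CPM per kilobase of exon, averaged over the 11 libraries. BBS4 was highest at 4.62 ± 2.37 (SD over 11 libraries of all groups), followed by BBS10 at 4.51 ± 0.770, BBS7 at 3.29 ± 0.475 and MKKS at 2.79 ± 0.361. BBS5 had 1.66 ± 0.233, BBS12 1.30 ± 0.433, ARL6 1.12 ± 0.185, BBS9 0.948 ± 0.178, BBS2 0.700 ± 0.201 and BBS1 0.369 ± 0.128. Each neighbouring pair in this order except MKKS and BBS5 had overlapping library ranges. In the control alone, BBS4 led at 7.90 ± 0.0242 (n = 2) and BBS10 followed at 5.73 ± 0.264, whereas with AAV9-AIPL1wt BBS10 led at 4.72 ± 0.713 (n = 3), MKKS and BBS7 stood at 2.80 ± 0.327 and 3.06 ± 0.183, and BBS4 was at 2.06 ± 0.654. The exon length used for BBS2, 16813 bases, is the longest of the 10 and lowers its value on this scale. The length of BBS1 includes the 68.5% of exon bases on which its reads could not be counted, which lowers its value too. The same holds for 23.5% of the exon bases of BBS5 and 12.5% of those of MKKS. The places of BBS1 and BBS2 in the order, and the step between MKKS and BBS5, are therefore uncertain.

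By the Pearson correlation of log2 CPM over the 11 libraries, the genes outside the list most like BBS4 among 13886 were CHMP3 (r = 0.992), STK33 (0.989) and ETFRF1 (0.989). Those most like BBS2 were PTCHD4 (0.958), FIG4 (0.958) and SLC35B3 (0.955), and those most like BBS12 were LRRC37B (0.962), RBMXL1 (0.945) and SMAD2 (0.943). The correlations of BBS4 with the other 9 members ran from -0.73 to 0.80. The libraries share groups and dates, so these values describe likeness of pattern only.

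The 10 genes had a mean exon GC content of 41.8%, below the median of 47.6% over the genes tested, and the mean exon GC content weighted by counts was 49.3 to 49.7% in the control libraries and 50.2 to 50.9% in the transduced ones. The share of reads with several alignments was 13.2 to 13.6% in the controls and 13.8 to 24.3% in the transduced libraries, highest in AAV9-AIPL1wt replicate 1. GC content moved with the groups in the comparisons with the control, and offsets that removed the trend with GC ended the calls of BBS7, BBS9 and BBS10 and left those of BBS4, BBS2 and BBS12. The plot of the called differences under other settings gives these values side by side.

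**Figure D3:**
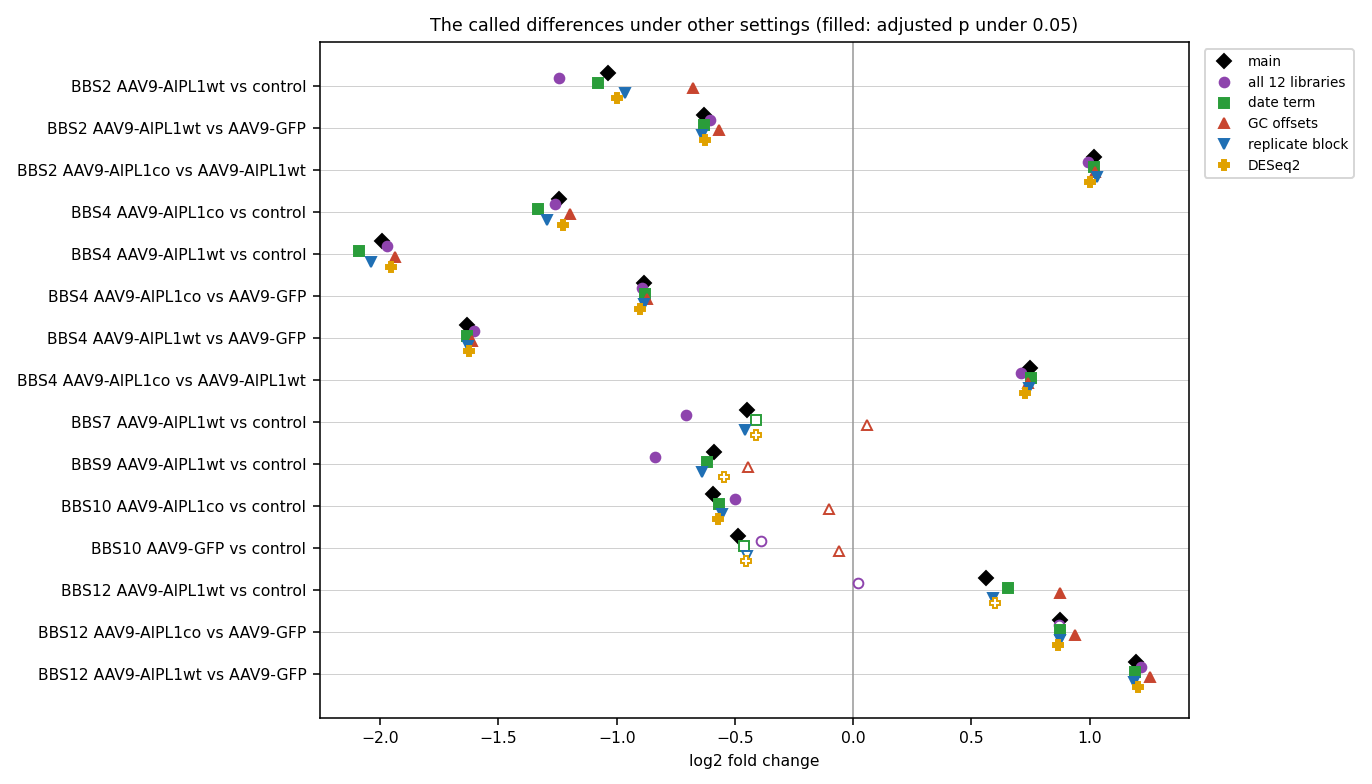
Log2 fold changes (horizontal axis) of the 15 called differences under the main fit and 5 other settings; filled symbols had an adjusted p under 0.05. BBS4 and BBS2 stay filled, while BBS7 and BBS10 move to between -0.10 and 0.06 with GC offsets and BBS12 against the control moves to 0.02 with all 12 libraries.

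The other genes of the pathway were taken from lists of 10 kinds, some of which share genes, among them CEP290, MKS1, IFT172, IFT74, IFT27 and IFT22. Their counts stand beside the shares of all genes tested, which against the control were 22.4% higher and 24.5% lower with AAV9-AIPL1co, and 26.4% and 30% with AAV9-AIPL1wt. AAV9-GFP gave 2.3% and 6.66%. Those shares are of the main fit, and none is given for GC offsets or all 12 libraries. A list count that moved under these settings is therefore not read as particular to that list. Both remaining BBSome subunits were tested. TTC8 differed from the control by -0.38 with AAV9-AIPL1wt (SE 0.13, adjusted p = 0.0221), which GC offsets ended (0.02, adjusted p = 0.882), and by -0.15 with AAV9-AIPL1co (adjusted p = 0.38), and BBIP1 was called in no comparison. All 8 genes of the CCT chaperonin, the partner of MKKS, BBS10 and BBS12, were tested. Of these 6 fell and 0 rose with AAV9-AIPL1co against the control, and likewise 6 and 0 with AAV9-AIPL1wt, with medians of -0.36 and -0.25, where 24.5% and 30% of all genes fell. With AAV9-GFP 1 fell, CCT6A (-0.36, adjusted p = 0.0433). With AAV9-AIPL1co, CCT6A was lower (-0.84, SE 0.11, adjusted p = 6.92e-06), as was TCP1 (-0.53, SE 0.09, adjusted p = 0.000169). With GC offsets 3 of the 8 fell with each vector, and with all 12 libraries 1 fell with AAV9-AIPL1wt.

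Of 14 other genes of Bardet-Biedl syndrome, which act outside the BBSome and its chaperones, 2 rose and 5 fell with AAV9-AIPL1co against the control, and 2 rose and 11 fell with AAV9-AIPL1wt, with medians of -0.43 and -1.12. Of all genes, 22.4% rose and 24.5% fell in the first comparison and 26.4% and 30% in the second, and with GC offsets 3 of the 14 fell with AAV9-AIPL1co. Against AAV9-GFP, 1 rose and 9 fell with AAV9-AIPL1wt, beside 25.6% and 25.5% of all genes. With AAV9-AIPL1co 3 rose and 3 fell against AAV9-GFP, beside 16.1% and 14.8%. SDCCAG8, a centrosomal protein gene, was lower than in the control with AAV9-AIPL1wt (log2 fold change -1.78, SE 0.17, adjusted p = 1.45e-07) and with AAV9-AIPL1co (-1.33, SE 0.16, adjusted p = 4.03e-06). CEP290, which builds the links of the transition zone at the base of the cilium, had differences of -1.54 (SE 0.13, adjusted p = 4.56e-08) and -1.29 (SE 0.13, adjusted p = 5e-07) in the same order. It was also lower with AAV9-GFP than in the control (-0.62, SE 0.13, adjusted p = 0.00976), and lower than with AAV9-GFP in both AIPL1 groups (-0.92, adjusted p = 7.81e-06, with AAV9-AIPL1wt and -0.67, adjusted p = 0.000377, with AAV9-AIPL1co). IFT172 fell with AAV9-AIPL1wt (-1.40, SE 0.16, adjusted p = 9.86e-07) and differed by 0.11 from the control with AAV9-AIPL1co (adjusted p = 0.557), and like BBS2 it was higher with AAV9-AIPL1co than with AAV9-AIPL1wt (1.51, SE 0.15, adjusted p = 5.02e-07).

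Of the 18 transition zone genes, the gate the BBSome passes with its cargo, 1 rose and 7 fell with AAV9-AIPL1co and 1 rose and 13 fell with AAV9-AIPL1wt against the control, with medians of -0.45 and -0.96, beside 22.4% higher and 24.5% lower, then 26.4% and 30%, of all genes. B9D1 was lower with AAV9-AIPL1wt (-2.34, SE 0.20, adjusted p = 5.17e-08) and with AAV9-AIPL1co (-0.83, SE 0.18, adjusted p = 0.00107), which is a difference between the vectors of 1.51 (SE 0.19, adjusted p = 1.04e-05). RPGRIP1L had differences of -1.74 and -0.94 (adjusted p = 1.36e-06 and 0.000591) and TMEM237 of -1.55 and -0.63 (adjusted p = 7.07e-07 and 0.00383) in the same order. Of the 17 genes of the IFT-B complex, which carries cargo toward the ciliary tip, 1 rose and 9 fell with AAV9-AIPL1co and 0 rose and 13 fell with AAV9-AIPL1wt, with medians of -0.51 and -0.92, beside the same shares of all genes. With AAV9-AIPL1wt, IFT80 was lower (-1.69, SE 0.26, adjusted p = 2.47e-05), as was CLUAP1 (-1.50, SE 0.20, adjusted p = 5.02e-06). With GC offsets 3 IFT-B genes fell with AAV9-AIPL1co. Of the 6 IFT-A genes, which serve the return path, 1 rose and 3 fell with AAV9-AIPL1co and 0 rose and 4 fell with AAV9-AIPL1wt. WDR35 was lower with AAV9-AIPL1wt (-1.45, SE 0.18, adjusted p = 2.78e-06), whereas WDR19 rose by 1.03 with AAV9-AIPL1co (SE 0.16, adjusted p = 4.74e-05), a call lost with all 12 libraries (0.28, adjusted p = 0.521). In the main fit WDR19 was also higher with AAV9-AIPL1co than with AAV9-GFP (1.38, adjusted p = 1.36e-06) and AAV9-AIPL1wt (0.88, adjusted p = 8.87e-05). Against AAV9-GFP, AAV9-AIPL1co had 1 transition zone gene higher and 5 lower, beside 16.1% and 14.8% of all genes. It had 1 and 2 for IFT-B and 1 and 1 for IFT-A. AAV9-AIPL1wt had 1 and 12, 0 and 13, and 1 and 3 in the same order, beside 25.6% and 25.5%.

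Of 8 ciliary motor genes, 0 rose and 6 fell with AAV9-AIPL1co and 1 rose and 6 fell with AAV9-AIPL1wt against the control, where 24.5% and 30% of all genes fell, with medians of -0.62 and -0.51. With AAV9-GFP 2 of the 8 fell and the median was -0.48. Against AAV9-GFP, 2 rose and 3 fell with AAV9-AIPL1wt (median 0.01), beside 25.6% and 25.5% of all genes. With AAV9-AIPL1co 0 rose and 2 fell against AAV9-GFP (median -0.24), beside 16.1% and 14.8%. The dynein genes DYNC2LI1 and DYNC2H1 were lower with AAV9-AIPL1wt than in the control (-1.91 and -1.86, adjusted p = 1.07e-06 and 4.68e-07), and KIF17, a kinesin gene, was the one that rose (1.43, SE 0.45, adjusted p = 0.0118). Among 12 partners of ARL6 and the BBSome, 2 rose and 1 fell with AAV9-AIPL1co and 1 rose and 5 fell with AAV9-AIPL1wt, and with GC offsets 2 and 3 fell. RABL2A and RABL2B are near-identical paralogs, so their unique counts are uncertain: RABL2B differed by -1.07 (SE 0.18, adjusted p = 8.33e-05) with AAV9-AIPL1wt and RABL2A by 0.95 (SE 0.24, adjusted p = 0.00353) with AAV9-AIPL1co. PCM1, the satellite protein that BBS4 binds, was lower with AAV9-AIPL1co (-0.85, SE 0.14, adjusted p = 0.000117) and with AAV9-AIPL1wt (-0.69, SE 0.14, adjusted p = 0.000509), of which the latter was lost with GC offsets (-0.26, adjusted p = 0.0787). It was also lower with AAV9-GFP than in the control (-0.61, SE 0.14, adjusted p = 0.0183), and against AAV9-GFP it was called with neither AIPL1 vector (-0.24, adjusted p = 0.182, and -0.08, adjusted p = 0.633). Of 9 genes listed as ciliary receptors and channels, with the adenylate cyclase gene ADCY3 among them, 7 were tested, and SSTR3 and MCHR1, known BBSome cargoes, were at 0 counts in every library. With AAV9-AIPL1wt 2 rose and 4 fell, among them ADCY3 (-1.14, SE 0.18, adjusted p = 3.48e-05) and the Hedgehog transducer SMO (-1.03, SE 0.21, adjusted p = 0.000512), and with AAV9-AIPL1co 1 rose and 3 fell. With GC offsets 0 rose with AAV9-AIPL1wt, and with all 12 libraries 0 rose with AAV9-AIPL1co. Of 8 ciliary transcription factors 5 were tested, and FOXJ1, the driver of motile cilia, had 2 counts in all. RFX1 was higher with AAV9-AIPL1co (0.77, SE 0.14, adjusted p = 0.000259) and RFX3 lower with AAV9-AIPL1wt (-0.97, SE 0.29, adjusted p = 0.00828), and the latter was lost with GC offsets (-0.52, adjusted p = 0.129).

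**Figure D4:**
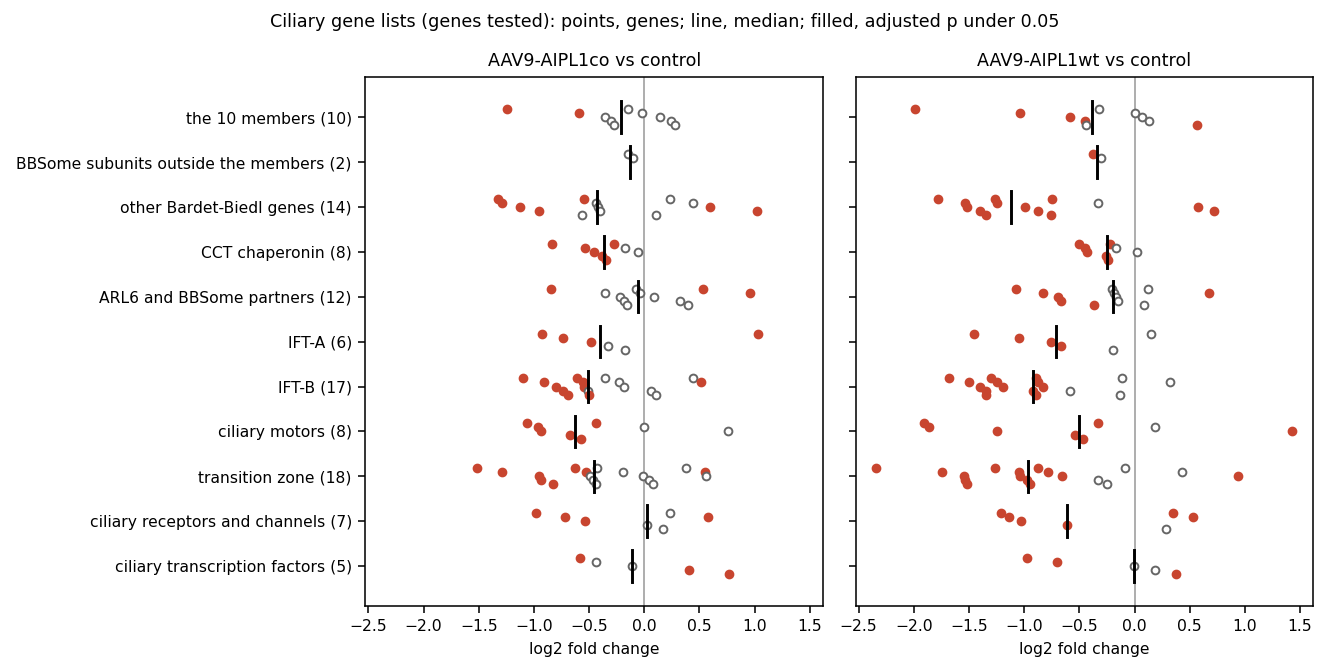
Log2 fold changes (horizontal axes) of the 10 genes and of the other ciliary lists against the control, with AAV9-AIPL1co on the left and AAV9-AIPL1wt on the right; points are genes, filled where the adjusted p was under 0.05, vertical lines are medians, and the number tested is in brackets. The medians are those of the main fit, without GC offsets. With AAV9-AIPL1wt they run from -1.12 for the other Bardet-Biedl genes to -0.01 for the transcription factors, with the 10 genes at -0.38.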

How the data were processed

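RNA was measured in 12 libraries of ARPE-19 cells, 3 per group. The authors sequenced poly(A)-selected, unstranded libraries with 60-base single reads, aligned them with STAR 2.7.10b to GRCh38 with Gencode and 4 vector entries, and counted unique alignments over exons with HTSeq 0.11.1. The deposited values are raw counts, identical to STAR's unstranded counts. Reads in no gene (4.60 to 7.22%), in several genes (7.82 to 8.71%) or with several alignments (13.2 to 24.3%) were left out, and no column was unused.

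The 13896 genes passing filterByExpr (edgeR 4.0.16, R 4.3.3) were scaled by TMM, and the quasi-likelihood model fitted the groups over 11 libraries, without control replicate 1, as the study did. The common biological coefficient of variation was 0.101. For standard errors, each log2 fold change was divided by the root of its F. Normalized counts are counts over effective library size, scaled to the geometric mean size; CPM per kilobase use Gencode 44 exon lengths, matched for 62686 genes. On simulated data (AAV9-AIPL1wt against the control, 13896 genes), 69 of 96 genes changed 2-fold and 95 of 98 changed 4-fold were called, with 11 of 13404 unchanged ones. A far smaller share of genes was changed there than the 26.4% and 30% called higher and lower in the data. These rates are therefore not carried over to the data. The 26 alternatives were other libraries, a date term, GC offsets, replicate blocks, scalings, filters, DESeq2 1.42.0, limma 3.58.1 (voom), fits of 2 groups, an adjusted p under 0.005 and each library left out.

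The 10 members and the other lists were chosen with earlier results of these data known. Named were all members and, from each list, up to 4 genes with the largest change against the control at an adjusted p under 0.05 (otherwise the highest counts), and the 3 genes most like the 3 members with the smallest adjusted p; 1 listed gene's own values are not reported here. Replicates are biological, as the study states; p-values cover the spread between these libraries. The study's other assays are not used here.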

Additional observations from a re-analysis of the deposited data

Results flagged for a closer look

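Control replicate 1, left out of the fits, had more than 1.5 times the mean of both other controls for 4 members. The share of all genes above that ratio is not given here, so the 4 are not read as a result about the members. Its normalized count was 2.48 times their mean for BBS12 (79.3 against 36.8 and 27.2), 1.71 times for BBS7 (266 against 141 and 169), 1.70 times for BBS9 (137 against 85.8 and 75.9) and 1.58 times for BBS2 (181 against 119 and 111). BBS1, MKKS and ARL6 were also above both, by 1.33, 1.33 and 1.21 times, and BBS5 and BBS10 were below both, at 0.870 and 0.855 times. BBS4, at 1.06 times, was also above both (272 against 255 and 257). The library also carries the other date of the 2 in the file names than the controls that were fitted, so library and date cannot be told apart for it.

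Vector reads outside the gene table were present in the groups labelled with them: 43 counts of the codon-optimized AIPL1 entry over the 3 AAV9-AIPL1co libraries and 7 counts of the GFP entries over the 3 AAV9-GFP libraries, with 0 in the controls.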

How the results depend on the processing

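The 5 BBS4 calls, the 3 BBS2 calls and the rise of BBS12 with AAV9-AIPL1wt over AAV9-GFP kept their direction in all 26 alternatives, and kept their call except at an adjusted p under 0.005, where BBS4 between the AIPL1 vectors (0.00587) and BBS2 between AAV9-AIPL1wt and AAV9-GFP (0.00569) failed. Directions reversed for BBS7 with AAV9-AIPL1wt against the control under GC offsets (0.0597) and under a replicate block with GC offsets (0.0135), and for BBS12 in that comparison with all 12 libraries and a date term (-0.0139). The causes were not tested. Deviations of same-numbered libraries correlated from -0.063 to 0.236, with 4 of 15 pairs over 0.1. Those of differently numbered libraries correlated from -0.255 to 0.202, with 3 of 30 pairs over 0.1. The ranges overlapped, so whether replicate numbers pair the samples is left undecided, and the main fit has no pairing. The replicate block moved the members called with AAV9-GFP against the control from 1 to 0 and added BBS2 between AAV9-AIPL1co and AAV9-GFP (0.39, adjusted p = 0.0448).

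Counts of members called moved as follows. The shares of all genes called under each setting are not given here, so no move is read as a result about the members. Between the AIPL1 vectors 2 became 1 at 0.005. Between AAV9-AIPL1co and AAV9-GFP 2 became 4 with GC offsets, with the replicate block and GC offsets or in a fit of the 2 groups, 1 with all 12 libraries, with or without the date term, or at 0.005, and ranged from 2 to 4 on leaving out a library (4 without AAV9-AIPL1wt replicate 2). For AAV9-AIPL1wt against the control 5 became 3 with no filter and 2 with DESeq2, at 0.005 or in a fit of the 2 groups, and ranged from 2 (without control replicate 3) to 5. For AAV9-GFP against the control 1 became 0 with DESeq2, GC offsets, 0.005, a date term, no filter, relative log expression, upper quartile scaling and the replicate block with and without GC offsets, 2 with library size only or all 12 libraries, 3 with all 12 libraries and a date term or in a fit of the 2 groups, and ranged from 0 to 2 on leaving out a library. In the other 2 comparisons the counts stayed within 1.5 times. The counts of the other lists were followed through 5 alternatives chosen after seeing the data. Depth limits BBS1 (8 to 28 reads) and BBS12 (19 to 59) most.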
